A study of Schizosaccharomyces pombe with 12 samples.

Results

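The comparison is between 2 fission yeast (Schizosaccharomyces pombe) strains with altered Dicer genes. One carries the allele dcr1-SHSS (strain SPB776) and the other the full deletion dcr1Δ (strain SPB81). All arrays titled with either genotype were taken, 3 for each, which makes 6 of the 12 tiling arrays of the series; 3 wild-type arrays (strain SPB80) are given as context. The remaining 3 arrays, of a further Dicer allele (dcr1ΔC33, strain SPB287), entered only the shared estimate of the spread. Cultures of every strain were harvested at an OD600 of 0.5, and total RNA was labelled through double-stranded target, so RNA from the 2 DNA strands is not told apart. Each genotype is represented by 1 strain, so an effect of the allele and any other difference between the strains cannot be told apart. The labels name the allele but do not spell it out. The series title concerns a zinc-binding motif in an extended double-stranded RNA binding domain that keeps Dicer in the nucleus.

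Dicer cleaves double-stranded RNA into small interfering RNAs. In fission yeast these small RNAs guide Argonaute and the Clr4 histone methyltransferase to the repeats around the centromeres, where heterochromatin then keeps the repeats nearly silent. In cells without Dicer the repeat transcripts build up. Comparing a mutant Dicer with no Dicer asks whether the mutant protein leaves any of this silencing, and where else in the transcriptome the 2 mutants part.

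Levels are log2 values, 1 per annotated feature and array, and a difference is dcr1-SHSS minus dcr1Δ. Differences are given with their moderated standard error (SE) and an adjusted p from limma over all 5483 features. Rose, fell, higher and lower in counts refer to an adjusted p under 0.05.

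The targeted gene separated the 2 strains as the genotypes say. dcr1 (SPCC188.13c) had levels of 10.67, 10.70 and 10.64 on the dcr1-SHSS arrays, against 5.52, 5.80 and 5.37 on the dcr1Δ arrays and 10.49, 10.57 and 10.60 in wild type. The altered gene was thus transcribed at a level near that of wild type, from which it differed by 0.12 (adjusted p = 0.304). The difference from dcr1Δ was 5.11 ± 0.09 (SE, n = 3 each), at least 34.4-fold, with an adjusted p of 9.06e-11. The dcr1Δ values are those of a deleted gene, so the fold is a lower bound.

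Of the measured neighbours of dcr1, spn6 (SPCC188.12), a septin gene, differed between the strains. It stood at 9.18, 8.91 and 9.17 on dcr1-SHSS arrays, at 8.40, 8.38 and 8.37 on dcr1Δ arrays and at 7.79, 7.46 and 7.80 in wild type. The groups did not overlap, and the difference was 0.70 ± 0.10 (adjusted p = 0.00149). The splicing factor gene prp45 (-0.05 ± 0.07, adjusted p = 0.61) and svf1 (0.00 ± 0.03, adjusted p = 0.97) were not shown to differ. The next measured feature beyond svf1, the non-coding RNA prl51, lay more than 5 annotated genes from dcr1. Its difference (-0.31 ± 0.13) did not pass with all arrays (adjusted p = 0.102) and did without dcr1-SHSS array 3 (adjusted p = 0.0348).

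Across the transcriptome, 1456 of 5483 features (26.6%) passed the test, 485 higher (8.85%) and 971 lower (17.7%) in dcr1-SHSS. Most differences were small: the median change was 0.32 among features called higher and -0.24 among those called lower. At least a 1.5-fold change was reached by 123 higher features (2.24%) and 23 lower ones (0.419%), so the larger differences lay mostly on the higher side. Only 46 higher and 4 lower features differed by 2-fold or more. All dcr1-SHSS arrays lay above all dcr1Δ arrays for 765 features (14.0%) and below them for 1598 (29.1%).

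The excess of small lower calls moved with the level of the features and with the scaling. The median difference over all features was -0.05. In the dimmest 25% of features by mean level it was -0.12, and in the brightest 25% it was -0.003. Among the dimmest 95 features were higher and 296 lower, and among the brightest 148 and 139. With each array centred on its median, 536 features were higher and 666 lower, so the higher share of the calls was 44.6% instead of 33.3%. The number of calls fell to 968 without dcr1-SHSS array 2, to 750 without dcr1Δ array 1 and to 937 without dcr1Δ array 2, and it was 908 with the arrays of the 2 strains alone. Of the 1456 features, 732 (50.3%) were also called without dcr1Δ array 1.

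**Figure D1:**
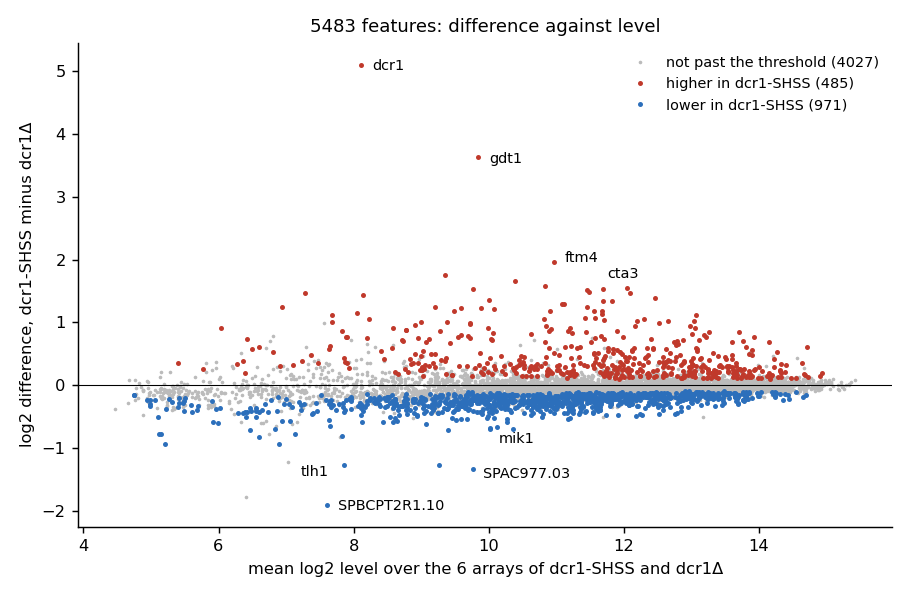
Each point is 1 of 5483 features; the horizontal axis is the mean log2 level over the 6 arrays of both strains and the vertical axis the log2 difference, dcr1-SHSS minus dcr1Δ, with calls in red (485 higher) and blue (971 lower). dcr1 and gdt1 stand far above the others, and most blue points lie within a narrow band under 0.

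At the centromeres, the transcripts that mark lost silencing were as high in dcr1-SHSS as in dcr1Δ to within the intervals given here. The 13 measured non-coding features of the centromeres lie in the gaps between the protein-coding genes that flank the centromeres, and for the brightest of them neither strain stood out. SPNCRNA.234 had levels of 12.12, 12.14 and 12.27 in dcr1-SHSS, against 12.23, 12.22 and 11.90 in dcr1Δ and 8.03, 6.80 and 7.82 in wild type. The mutants overlapped with each other and lay far above wild type. Their difference was 0.06 ± 0.25 (adjusted p = 0.881), with a 95% interval of -0.49 to 0.61. Against wild type, which both contrasts share, SPNCRNA.234 rose by 4.63 in dcr1-SHSS (adjusted p = 5.51e-07) and by 4.57 in dcr1Δ (adjusted p = 2.06e-06).

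SPNCRNA.373 stood at 12.15, 12.29 and 12.29 in dcr1-SHSS, at 11.89, 12.22 and 12.18 in dcr1Δ and at 8.12, 8.08 and 8.84 in wild type. Again the mutants overlapped, with a difference of 0.15 ± 0.18 (adjusted p = 0.551, interval -0.24 to 0.54). SPNCRNA.232 was at 9.30, 9.11 and 9.47 in dcr1-SHSS, 9.18, 9.51 and 9.27 in dcr1Δ and 5.80, 5.94 and 6.43 in wild type. Its difference between the mutants was -0.02 ± 0.24 (adjusted p = 0.955, interval -0.56 to 0.51). SPNCRNA.231 was slightly apart: 9.38, 9.48 and 9.39 in dcr1-SHSS lay above 9.16, 8.99 and 9.27 in dcr1Δ, with 6.75, 6.96 and 6.95 in wild type. That difference, 0.28 ± 0.11, did not pass the test (adjusted p = 0.0851, interval 0.03 to 0.52). Against wild type these 4 features passed in both mutants, and of the other 9 only SPNCRNA.481 did, in dcr1Δ (adjusted p = 0.0238). With the replicate number as a block SPNCRNA.370 also passed in dcr1-SHSS against wild type (adjusted p = 0.0251). The intervals leave room for a difference of up to about 0.6 on the log2 scale either way, beside rises over wild type several times as large.

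Of the 13 gap features, 0 were called higher and 3 lower (23.1%) in dcr1-SHSS, with a median difference of -0.08, against 17.7% lower and a median of -0.05 over all features. All 3 lower ones were among the dimmest 20% of features, and 0 of them could be called with those features left out. For SPNCRNA.233 and SPNCRNA.481 the means of both strains lay under 5.80, the highest level of the deleted dcr1 on a dcr1Δ array. In all, 132 features had both means at or under that level, and 23 of them were called. The differences of SPNCRNA.233 and SPNCRNA.481 thus lie at levels that a deleted gene also reads. SPNCRNA.233 stood at 4.85, 4.44 and 4.94 in dcr1-SHSS, against 5.07, 6.16 and 5.81 in dcr1Δ and 4.80, 4.66 and 4.57 in wild type. The dcr1-SHSS arrays overlapped with wild type. Its difference, -0.94 ± 0.27 (adjusted p = 0.0298), was lost without dcr1-SHSS array 1 or 2 or dcr1Δ array 2 or 3 (highest adjusted p 0.0967). SPNCRNA.481 was at 4.57, 4.78 and 4.95 in dcr1-SHSS, 5.40, 5.49 and 5.71 in dcr1Δ and 4.70, 4.45 and 5.10 in wild type. Its difference was -0.77 ± 0.16 (adjusted p = 0.00725).

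The difference of SPNCRNA.359, -0.38 ± 0.12 (adjusted p = 0.0371), was lost without dcr1-SHSS array 1 or 2 or dcr1Δ array 1 or 3 (highest adjusted p 0.135). SPNCRNA.370 (-0.24 ± 0.09) did not pass (adjusted p = 0.0704) and did with the replicate number as a block (adjusted p = 0.0341). SPNCRNA.366 scattered widely, at 7.20, 5.98 and 6.08 in dcr1-SHSS, 7.86, 6.61 and 8.44 in dcr1Δ and 8.19, 6.64 and 6.34 in wild type. With a difference of -1.22 ± 0.61 it did not pass (adjusted p = 0.158). The other gap features, SPNCRNA.364, SPNCRNA.369, SPNCRNA.374 and SPNCRNA.480, did not pass either with all arrays; SPNCRNA.374 passed without dcr1Δ array 1 (adjusted p = 0.037). The gap on chromosome II held 7 of the measured features, that on chromosome I held 4 and that on chromosome III held 2.

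The uracil synthesis gene ura4, widely used in this yeast as a marker and as a silencing reporter, was high in both mutants. It had levels of 10.44, 10.34 and 10.39 in dcr1-SHSS, against 10.93, 10.80 and 10.85 in dcr1Δ and 7.76, 7.36 and 7.79 in wild type. The dcr1-SHSS arrays lay below the dcr1Δ arrays, by -0.47 ± 0.10 (adjusted p = 0.00883), and both groups lay about 3 units above wild type (2.75 in dcr1-SHSS and 3.22 in dcr1Δ). The labels do not give the state of ura4 in these strains, so what its level reports cannot be told apart from the strains' marker genotypes. Among the 11 genes used as auxotrophic markers, 0 were higher and 3 lower (27.3%, against 17.7% of all features), with a median difference of -0.09. Besides ura4 these were the histidine synthesis genes his5 (-0.39 ± 0.07, adjusted p = 0.00507) and his2 (-0.14). The call of his2 was lost without dcr1-SHSS array 1 or 2 (highest adjusted p 0.0589).

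Genes of the RNA interference machinery itself differed little apart from dcr1. Of 13 measured, dcr1 was higher and 3 were lower (23.1%), a share near the 17.7% of all features. They were stc1 (-0.39 ± 0.10, adjusted p = 0.0184), which links RNA interference to the Clr4 complex, dsh1 (-0.22) and tas3 (-0.20), a subunit of the RITS complex. These 3 calls were weak: 0 of them were left without dcr1-SHSS array 2 or without dcr1Δ array 1, and 1 without dcr1-SHSS array 1 or dcr1Δ array 2. Of 16 heterochromatin factor genes 0 were higher, or 1 after quantile normalization or median centring. Lower were 2 (12.5%, under the 17.7% of all features), the histone deacetylase genes sir2 (-0.45 ± 0.10, adjusted p = 0.0126) and clr6 (-0.17). The call of sir2 was lost without dcr1Δ array 1 (adjusted p = 0.0506) and that of clr6 without dcr1-SHSS array 1 or 2 or any 1 dcr1Δ array (highest adjusted p 0.0872).

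**Figure D2:**
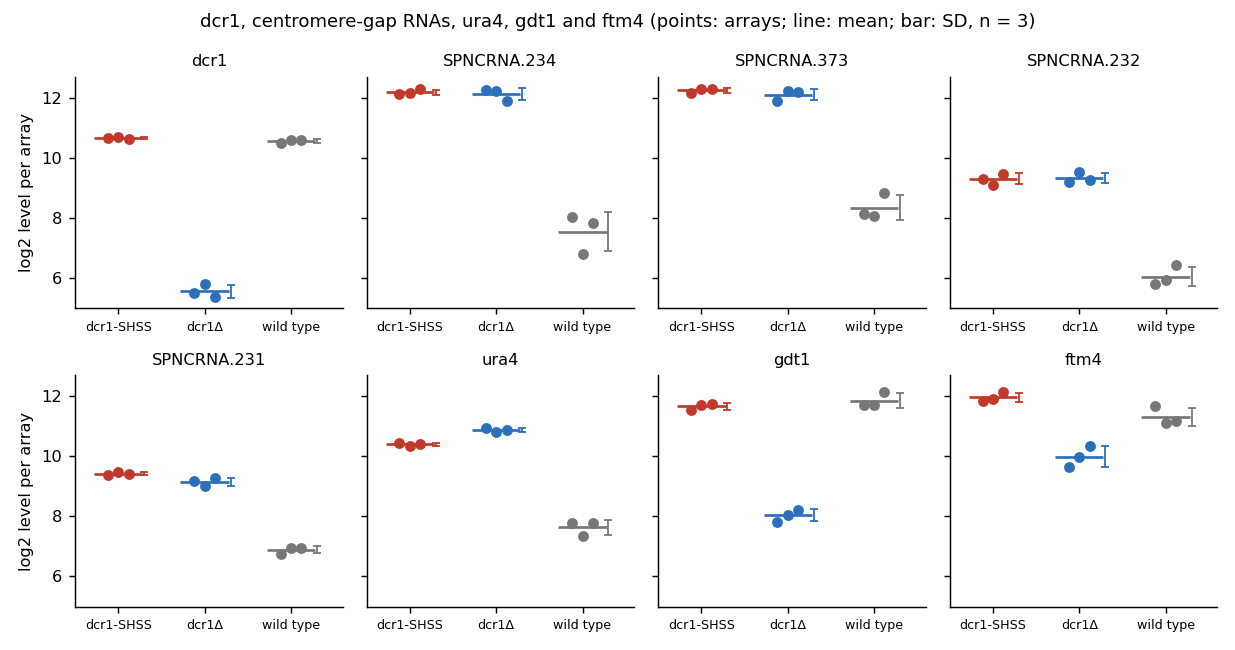
Log2 level per array (points), mean (line) and SD (bar, n = 3) in dcr1-SHSS, dcr1Δ and wild type for dcr1, 4 centromere-gap RNAs, ura4, gdt1 and ftm4. The centromere-gap RNAs are high in both mutants, whereas dcr1, gdt1 and ftm4 are low in dcr1Δ.

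After dcr1, the feature that differed most was gdt1 (SPAC186.05c), named for a family of calcium and manganese transporters. It had levels of 11.53, 11.71 and 11.74 in dcr1-SHSS, against 7.82, 8.05 and 8.21 in dcr1Δ and 11.70, 11.69 and 12.13 in wild type. Here dcr1Δ was the strain set apart, since dcr1-SHSS differed from wild type by only -0.18 (adjusted p = 0.313) and dcr1Δ by -3.81. The difference between the mutants was 3.63 ± 0.14, or 12.4-fold (adjusted p = 1.88e-07). The next, ftm4, lies close by. Its levels were 11.83, 11.90 and 12.11 in dcr1-SHSS, 9.64, 9.97 and 10.33 in dcr1Δ and 11.66, 11.09 and 11.16 in wild type. The groups did not overlap: dcr1-SHSS exceeded dcr1Δ by 1.97 ± 0.20 (adjusted p = 0.000232) and wild type by 0.64 (adjusted p = 0.0247), while dcr1Δ was below wild type by -1.32 (adjusted p = 0.00405).

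Both genes belong to the right end of chromosome I, where all the higher calls at the chromosome ends lay. Chromosome ends hold a further heterochromatin domain in this yeast, rich in repeated sequence, so that copies can share probes. Among the first and last 40 genes of chromosomes I and II in annotation order, 44 features were measured, of which 8 were higher (18.2%, against 8.85% of all features) and 11 lower (25%, against 17.7%) in dcr1-SHSS, with a median difference of -0.26. All 8 higher features lay among the 17 of the right end of chromosome I, where 2 more were lower and the median was 0.29. At the left end of chromosome I, 0 of 13 were higher and 6 lower (median -0.43). The left end of chromosome II had 0 higher and 2 lower of 8, and its right end 0 higher and 1 lower of 6. Whether the ends differ from each other was not tested. The 8 higher calls were also 8 in every fit that left out 1 array, whereas the 11 lower ones fell to 7 without dcr1Δ array 1. Without the dimmest 20% of features the counts were 3 higher and 1 lower, so most of these calls, and nearly all the lower ones, rest on dim features.

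At the right end of chromosome I the higher features were interspersed with others over 13 consecutive measured features. Those named here outside the fixed rule were chosen after their values were seen. SPAC186.02c had levels of 10.01, 10.13 and 9.36 in dcr1-SHSS, 8.63, 8.73 and 8.40 in dcr1Δ and 6.70, 6.64 and 7.04 in wild type, so both mutants were above wild type. Its difference was 1.24 ± 0.18 (adjusted p = 0.00175). The pyruvate decarboxylase gene pdc102 was at 8.54, 8.54 and 8.77 in dcr1-SHSS, against 7.61, 7.35 and 7.45 in dcr1Δ and 7.68, 7.10 and 7.89 in wild type, so only dcr1-SHSS stood apart (1.15 ± 0.17, adjusted p = 0.00191). SPAC750.01 showed the same order, with 11.18, 10.86 and 11.63 in dcr1-SHSS, 9.37, 9.45 and 9.86 in dcr1Δ and 9.77, 9.28 and 9.88 in wild type (1.66 ± 0.21, adjusted p = 0.000867). Neighbouring features therefore differed in which strain lay apart from wild type. SPAC186.04c (1.12), SPAC186.06 (0.91) and the non-coding RNA prl61 (0.73) were the remaining higher ones. Nearer the centromere at this end, the flocculin gene pfl9 and SPAC869.01 (-0.43) were lower.

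At the other ends the largest lower values were less certain. SPBCPT2R1.10, a pseudogene near the right end of chromosome II, had levels of 7.34, 5.25 and 7.37 in dcr1-SHSS, against 8.58, 8.85 and 8.25 in dcr1Δ and 8.12, 8.72 and 7.61 in wild type. One dcr1-SHSS array lay 2 units below the other 2. The difference of -1.91 ± 0.51 (adjusted p = 0.0232) was lost without dcr1Δ array 1 or 2 (highest adjusted p 0.0698) and with the 2 strains alone (adjusted p = 0.0657). SPAC977.03 fell more evenly, with 9.32, 8.78 and 9.18 in dcr1-SHSS, 11.001, 9.96 and 10.32 in dcr1Δ and 10.14, 10.06 and 10.16 in wild type (-1.33 ± 0.23, adjusted p = 0.00395). The helicase gene tlh1, the outermost measured gene at the left end of chromosome I, was at 7.51, 7.38 and 6.80 in dcr1-SHSS, 8.62, 8.92 and 7.95 in dcr1Δ and 7.85, 6.64 and 7.37 in wild type. Its difference, -1.27 ± 0.37 (adjusted p = 0.0317), was lost without dcr1-SHSS array 2 or 3 or dcr1Δ array 1 or 2 (highest adjusted p 0.101).

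The related tlh2 did not pass (-0.36, adjusted p = 0.384). The non-coding RNA SPNCRNA.287 had levels of 8.42, 8.62 and 8.86 in dcr1-SHSS, against 9.53, 10.26 and 9.92 in dcr1Δ and 9.49, 8.90 and 8.86 in wild type (-1.26 ± 0.24, adjusted p = 0.00558). SPAC212.08c was also lower (-0.83 ± 0.15, adjusted p = 0.00455), as were SPAC977.04 (-0.70 ± 0.19, adjusted p = 0.0225) and SPBPB8B6.02c (-0.71 ± 0.17, adjusted p = 0.013). The call of SPAC977.04 was lost without dcr1-SHSS array 1 or 2 or dcr1Δ array 1 or 2 (highest adjusted p 0.074), and that of SPBPB8B6.02c without dcr1Δ array 1 (adjusted p = 0.052).

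**Figure D3:**
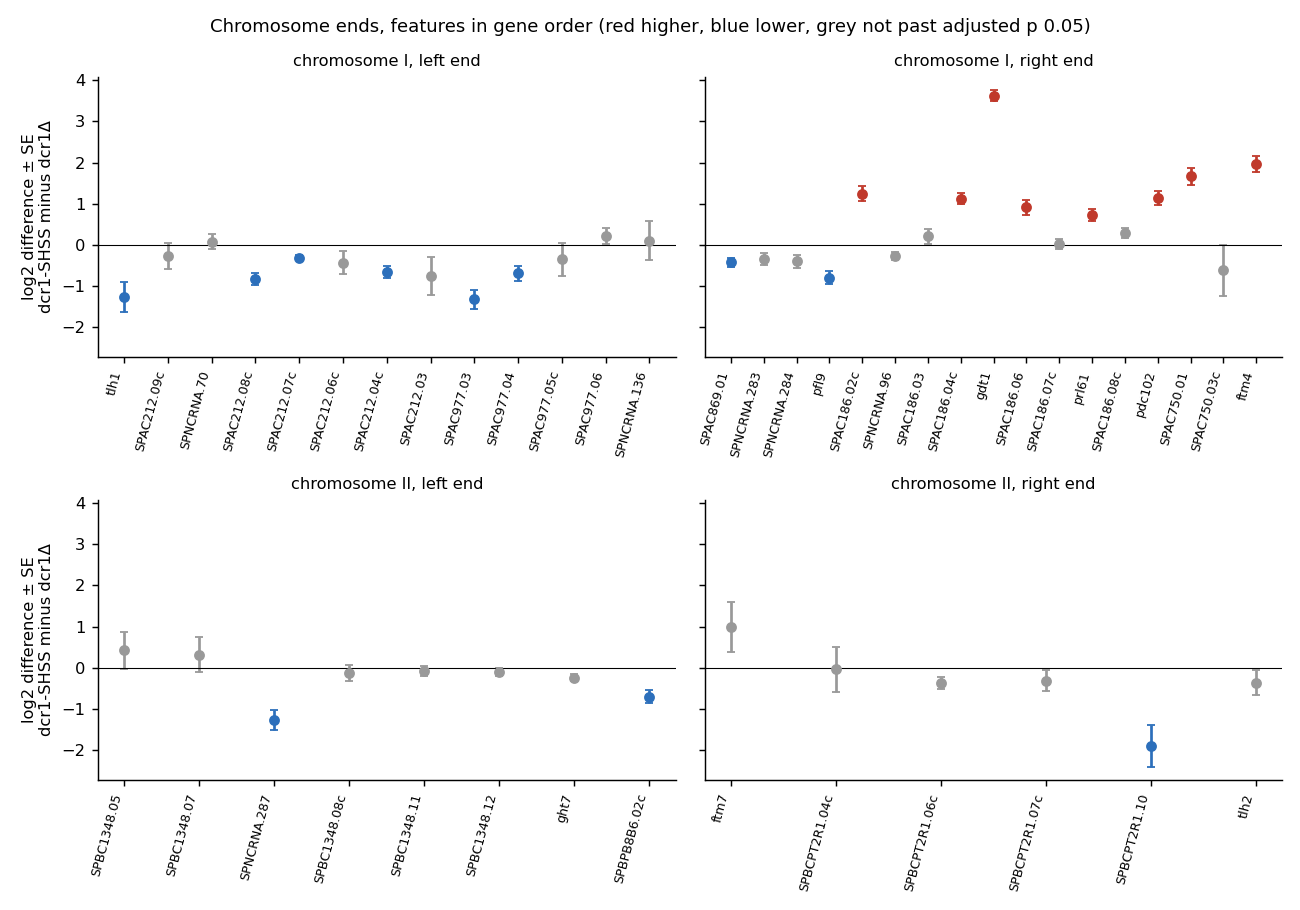
Log2 difference ± SE, dcr1-SHSS minus dcr1Δ, of the 44 measured chromosome-end features in gene order, with calls in red (higher) and blue (lower) and the others in grey. All 8 red points lie at the right end of chromosome I, and blue points occur at every end.

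Genes of the core environmental stress response, which fission yeast switches on under many stresses through the Sty1 kinase and the Atf1 factor, were higher in dcr1-SHSS. Of 24 measured, 15 rose (62.5%) and 0 fell, with a median difference of 0.39, against 8.85% higher and a median of -0.05 over all features. cta3, which encodes a cation-transporting ATPase, had levels of 12.31, 12.30 and 12.77 in dcr1-SHSS, against 10.69, 10.84 and 11.26 in dcr1Δ and 8.27, 8.002 and 8.18 in wild type. The 3 groups did not overlap, and dcr1Δ lay between dcr1-SHSS and wild type. The difference between the mutants was 1.53 ± 0.15, or 2.89-fold (adjusted p = 0.000232). The metallothionein gene zym1 followed the same order, with 12.12, 12.09 and 11.69 in dcr1-SHSS, 10.67, 11.13 and 10.87 in dcr1Δ and 9.74, 9.65 and 9.46 in wild type (1.08 ± 0.14, adjusted p = 0.00088). So did srx1, for the peroxiredoxin-repairing enzyme sulfiredoxin, with 14.14, 13.95 and 14.29 in dcr1-SHSS, 13.10, 13.09 and 13.66 in dcr1Δ and 12.56, 12.46 and 12.81 in wild type (0.84 ± 0.15, adjusted p = 0.0047).

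The other 12 stress genes that rose did so by 0.23 to 0.76. They included gst2 (0.76), a glutathione S-transferase gene, gpx1 (0.48), for glutathione peroxidase, the trehalase gene ntp1 (0.43), gpd1 (0.29), for glycerol-3-phosphate dehydrogenase, and the catalase gene ctt1 (0.25). pyp2, trx2, tpp1, gst1, rds1, gst3, tps1, hri1 and obr1 did not pass. The count of higher members ranged from 11 to 17 when single arrays were left out.

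Of 15 genes of the Sty1 pathway itself, 2 rose (13.3%, against 8.85% of all features) and 0 fell, with a median of 0.02. Both encode bZIP transcription factors of the ATF/CREB family. atf21 had levels of 10.58, 10.54 and 10.92 in dcr1-SHSS, against 9.13, 9.47 and 9.81 in dcr1Δ and 9.07, 8.60 and 8.57 in wild type (1.21 ± 0.18, adjusted p = 0.0018). atf31 rose by 0.76 ± 0.21 (adjusted p = 0.0272), which was lost without dcr1-SHSS array 1 or 3 or dcr1Δ array 1 or 2 (highest adjusted p 0.0805). With the replicate number as a block, 5 of the 15 were higher.

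Of 18 heat shock and chaperone genes, 6 rose (33.3%, against 8.85% of all features) and 0 fell (median 0.08). hsp78, for the mitochondrial disaggregase, was at 13.13, 12.93 and 13.20 in dcr1-SHSS, against 12.34, 12.22 and 12.63 in dcr1Δ and 12.24, 12.13 and 12.52 in wild type. Only dcr1-SHSS stood apart for this gene (0.69 ± 0.12, adjusted p = 0.00455). The small heat shock protein gene hsp16 was higher in both mutants, at 14.24, 14.01 and 14.10 in dcr1-SHSS, 13.34, 13.31 and 13.59 in dcr1Δ and 12.25, 11.37 and 12.24 in wild type. Its difference between the mutants, 0.70 ± 0.19 (adjusted p = 0.0256), was lost without dcr1-SHSS array 1 or 3 or dcr1Δ array 1 or 2 (highest adjusted p 0.077). The Hsp70 gene ssa1 rose by 0.57 ± 0.18 (adjusted p = 0.0433), a call that was lost without any 1 dcr1-SHSS array or dcr1Δ array 1 or 2 (highest adjusted p 0.138). hsp104 (0.45), hsp20 (0.19) and hsf1 (0.14), for the heat shock factor, also rose. Without dcr1-SHSS array 1 or dcr1Δ array 1 the count of 6 fell to 3.

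Genes for nutrient uptake and use rose in smaller numbers. Of 11 iron acquisition genes, 4 rose (36.4%, against 8.85% of all features) and 0 fell (median 0.10), and the count fell to 2 without dcr1Δ array 1. The ferric reductase gene frp2 was at 12.11, 12.05 and 12.07 in dcr1-SHSS, against 10.74, 10.82 and 10.94 in dcr1Δ and 9.03, 9.005 and 9.19 in wild type, 3 tight groups in steps of more than 1 unit. Its difference between the mutants was 1.24 ± 0.06 (adjusted p = 8.47e-07). The siderophore transporter gene str2 rose by 0.29 ± 0.04 (adjusted p = 0.00149), and php4 by 0.17. sib1, for the ferrichrome synthetase, rose by 0.29 ± 0.08 (adjusted p = 0.0194), which was lost without dcr1-SHSS array 3 or dcr1Δ array 1 or 2 (highest adjusted p 0.0739).

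Of 14 genes of hexose transport and glucose repression, 4 rose (28.6%, against the same 8.85%) and 0 fell (median 0.10), with 2 left without dcr1-SHSS array 2 or 3 and 1 without dcr1Δ array 1. The maltase gene agl1 was at 12.77, 12.79 and 12.61 in dcr1-SHSS, against 12.04, 12.16 and 12.23 in dcr1Δ and 11.61, 11.73 and 11.98 in wild type, without overlap (0.58 ± 0.10, adjusted p = 0.0032). fbp1, for fructose-1,6-bisphosphatase, rose by 0.90 ± 0.24 (adjusted p = 0.022) and the invertase gene inv1 by 0.73 ± 0.18 (adjusted p = 0.0171). Both calls were lost without single arrays, that of fbp1 without dcr1-SHSS array 1 or 2 or dcr1Δ array 1 (highest adjusted p 0.0823) and that of inv1 without dcr1-SHSS array 3 or dcr1Δ array 1 or 2 (highest adjusted p 0.0675). The hexose transporter gene ght2 rose by 0.34.

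Of 10 pyrimidine genes 3 were higher (30%, against 8.85% of all features) and 2 lower (20%, near the 17.7% of all features). urh1, for a uridine ribohydrolase, had levels of 12.28, 12.31 and 12.06 in dcr1-SHSS, 10.71, 10.69 and 10.69 in dcr1Δ and 9.67, 9.29 and 9.69 in wild type (1.52 ± 0.11, adjusted p = 4.36e-05). The uracil-regulated genes urg1 (1.11 ± 0.24, adjusted p = 0.00896) and urg2 (0.95 ± 0.27, adjusted p = 0.0271) also rose. The call of urg2 was lost without dcr1-SHSS array 1 or 2 or dcr1Δ array 3 (highest adjusted p 0.0857). The genes of this list that fell, ura4 and ura5 (-0.35), belong to uracil synthesis.

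Of 8 phosphate acquisition genes 2 were higher (25%, against 8.85% of all features) and 1 lower (12.5%, under the 17.7% of all features). The acid phosphatase gene pho1 was at 13.82, 13.77 and 13.82 in dcr1-SHSS, 13.37, 13.45 and 13.36 in dcr1Δ and 14.00, 14.05 and 13.89 in wild type, so here dcr1-SHSS lay between dcr1Δ and wild type. It differed from dcr1Δ by 0.41 ± 0.05 (adjusted p = 0.000421). The glycerophosphodiester transporter gene tgp1 rose by 0.37 ± 0.07 (adjusted p = 0.00415), and the phosphatase gene pho4 fell by 0.24 ± 0.05 (adjusted p = 0.0068). Of 11 nitrogen-responsive genes 1 rose (9.09%, near the 8.85% of all features), the vacuolar protease gene isp6, at 13.35, 13.43 and 13.29 in dcr1-SHSS, against 12.67, 12.85 and 12.78 in dcr1Δ and 12.37, 12.49 and 12.41 in wild type (0.59 ± 0.06, adjusted p = 0.000232). Without dcr1-SHSS array 3 the higher count of this list was 3, without dcr1-SHSS array 2 its lower count was 2, and with the replicate block 2 were higher and 2 lower.

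The remaining features among the 15 highest were mostly ones in which dcr1Δ lay between dcr1-SHSS and wild type. osr1 (SPCC663.06c) was at 11.49, 11.54 and 11.86 in dcr1-SHSS, 9.84, 9.95 and 10.33 in dcr1Δ and 8.80, 8.39 and 8.96 in wild type (1.59 ± 0.17, adjusted p = 0.00037). The protein kinase gene ppk31 was at 10.27, 10.43 and 10.90 in dcr1-SHSS, 8.87, 8.88 and 9.24 in dcr1Δ and 7.78, 7.42 and 7.51 in wild type (1.54 ± 0.15, adjusted p = 0.000232). SPCC70.04c was at 12.79, 12.89 and 12.83 in dcr1-SHSS, 11.12, 11.30 and 11.65 in dcr1Δ and 10.03, 9.93 and 9.95 in wild type (1.48 ± 0.11, adjusted p = 3.88e-05). For these 3 features the groups were separate and in the same order. SPBC1773.03c (1.49 ± 0.10), psu2 (1.38 ± 0.13), cmt2 (1.76 ± 0.26), SPCC663.08c (1.54 ± 0.31) and the non-coding RNAs SPNCRNA.288 (1.44 ± 0.12) and SPNCRNA.126 (1.46 ± 0.32) complete the set, with adjusted p values from 3.88e-05 to 0.00965. Of these, cmt2, SPCC663.08c and SPNCRNA.126 were not shown to differ between dcr1Δ and wild type (adjusted p of 0.13, 0.13 and 0.49). With the replicate number as a block SPCC663.08c did pass between dcr1Δ and wild type (adjusted p = 0.00983).

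**Figure D4:**
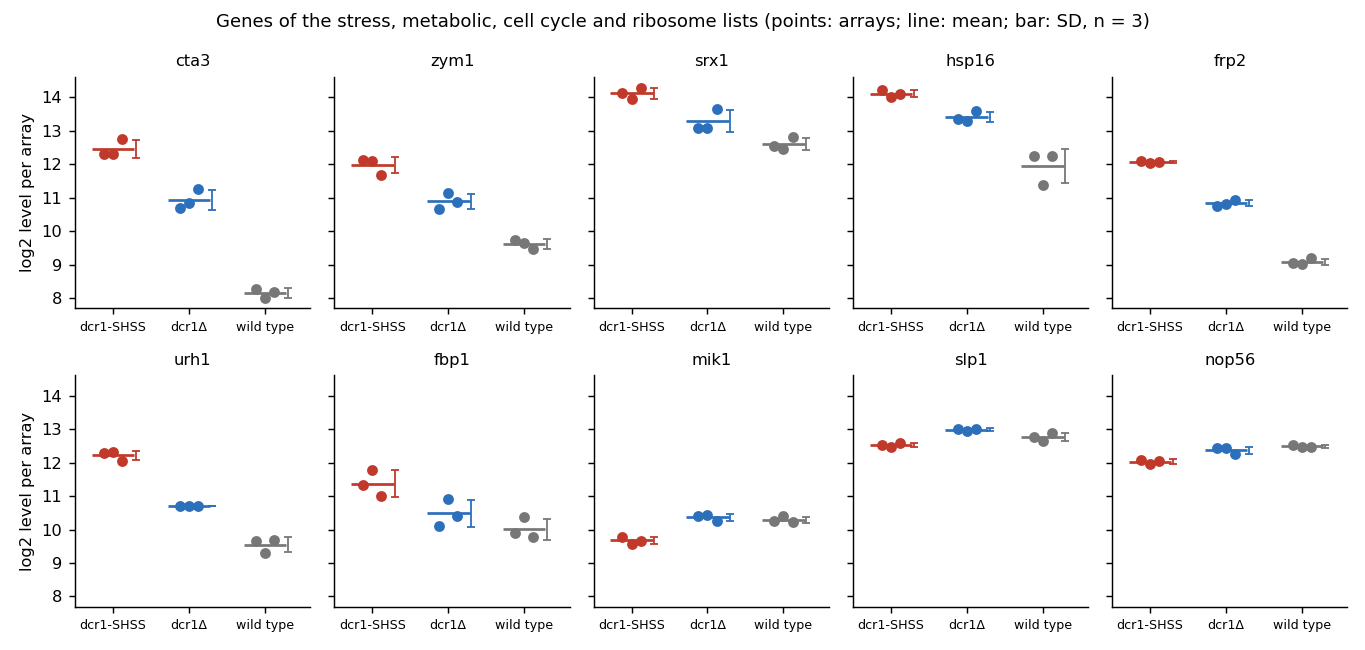
Log2 level per array (points), mean (line) and SD (bar, n = 3) in dcr1-SHSS, dcr1Δ and wild type for 10 genes of the stress, nutrient, cell cycle and ribosome lists. cta3, frp2 and urh1 fall in 3 separate steps, highest in dcr1-SHSS, and mik1, slp1 and nop56 are lowest in dcr1-SHSS.

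Genes of G1/S, mitosis and cell separation were lower in dcr1-SHSS, by small amounts. In whole cultures a smaller share of cells in a cell cycle phase and less RNA per cell cannot be told apart. The 12 G1/S genes include targets of the MBF complex, which acts before DNA replication, and the MBF subunit genes cdc10, res1 and res2. Of the 12, 8 fell (66.7%, against 17.7% of all features) and 0 rose, with a median of -0.18. The lower count was 5 without dcr1Δ array 2. mik1, for a kinase that inhibits Cdc2, had levels of 9.78, 9.58 and 9.66 in dcr1-SHSS, against 10.40, 10.44 and 10.25 in dcr1Δ and 10.26, 10.40 and 10.21 in wild type. dcr1-SHSS alone stood apart (-0.69 ± 0.07, adjusted p = 0.000232). For the replication licensing gene cdt1 it was dcr1Δ that stood apart, with 11.25, 11.12 and 11.33 in dcr1-SHSS, 11.70, 11.56 and 11.66 in dcr1Δ and 11.22, 11.09 and 11.32 in wild type (-0.41 ± 0.07, adjusted p = 0.00333). The list's lower calls thus combine genes reduced in one mutant with genes raised in the other. yox1, an MBF co-repressor gene, fell by 0.37 ± 0.08 (adjusted p = 0.00867), cdc22, for ribonucleotide reductase, by 0.22 and the cyclin gene cig2 by 0.21; res1, cdc10 and nrm1 also fell.

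Of 15 genes of mitosis and cell separation 9 fell (60%, against 17.7% of all features) and 0 rose (median -0.18), with 5 left without dcr1Δ array 1. slp1, for an activator of the anaphase-promoting complex, was at 12.53, 12.48 and 12.58 in dcr1-SHSS and 13.02, 12.94 and 13.01 in dcr1Δ (-0.46 ± 0.06, adjusted p = 0.000867). Wild type lay between them, at 12.76, 12.64 and 12.87. Against wild type dcr1-SHSS differed by -0.23 (adjusted p = 0.0101) and dcr1Δ by 0.23 (adjusted p = 0.0606). The latter passed with a trended robust moderation and with the replicate block. agn1, a glucanase gene of septum breakdown, was at 11.37, 11.36 and 11.36 in dcr1-SHSS, 11.81, 11.66 and 11.64 in dcr1Δ and 11.75, 11.57 and 11.77 in wild type (-0.34 ± 0.06, adjusted p = 0.00353). The septum glucanase gene eng1 (-0.21) and the polo kinase gene plo1 (-0.20) were also lower. Of 20 kinetochore and spindle checkpoint genes, 4 fell (20%) and 0 rose (median -0.11), a share near the 17.7% of all features: cnp3 (-0.44), the CENP-C gene, mis16 (-0.27), mad2 (-0.21) and ndc80 (-0.19). Without dcr1Δ array 1, 0 of them passed, and without dcr1-SHSS array 1 or dcr1Δ array 2, 2 did.

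Part of the genes for making ribosomes were called lower as well. Of 18 ribosome biogenesis genes 10 fell (55.6%, against 17.7% of all features) and 0 rose (median -0.18), with 5 left without dcr1Δ array 1. nop56, for a core protein of snoRNA particles, was at 12.08, 11.96 and 12.06 in dcr1-SHSS, against 12.44, 12.43 and 12.24 in dcr1Δ and 12.54, 12.46 and 12.47 in wild type (-0.34 ± 0.05, adjusted p = 0.00275). rrs1 (-0.34 ± 0.08) passed with all arrays (adjusted p = 0.0127) and not without dcr1Δ array 1 (adjusted p = 0.0501). nop2 (-0.29 ± 0.09, adjusted p = 0.0344) was lost without dcr1-SHSS array 2 or 3 or dcr1Δ array 1 or 2 (highest adjusted p 0.115). The RNA polymerase I subunit gene nuc1 fell by 0.23.

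Among the cytosolic ribosomal protein genes, 44 of 129 were lower (34.1%, against 17.7% of all features) and 0 higher, with a median of -0.11. This count depended strongly on single arrays and on the fit: it was 17 without dcr1-SHSS array 2 or 3, 15 without dcr1Δ array 1, 19 without dcr1Δ array 2 and 13 with the arrays of the 2 strains alone. It was 26 with median centring, 56 after quantile normalization, 63 with a trended robust moderation and 54 with the replicate block. rpl1603 was at 11.12, 10.68 and 10.91 in dcr1-SHSS, against 11.57, 11.46 and 11.27 in dcr1Δ and 11.63, 11.48 and 11.52 in wild type (-0.53 ± 0.11, adjusted p = 0.00805). rpl102 was at 11.18, 10.81 and 11.06 in dcr1-SHSS, 11.50, 11.45 and 11.33 in dcr1Δ and 11.52, 11.45 and 11.45 in wild type (-0.42 ± 0.08, adjusted p = 0.00647). For both, dcr1Δ and wild type overlapped and dcr1-SHSS lay below. Ribosomal protein genes come in near-identical copies that can share probes.

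The flocculation genes split. Of 12, 5 fell (41.7%, against 17.7% of all features) and 0 rose, while the list's median was -0.02, and 5 fell in every fit that left out 1 array. Those that fell were the cell surface adhesin genes pfl9, pfl7, pfl6 and pfl8 and mbx2, which encodes their activator. pfl9 was at 7.45, 7.26 and 7.58 in dcr1-SHSS, against 8.26, 8.31 and 8.13 in dcr1Δ and 7.56, 7.08 and 7.48 in wild type, so that dcr1Δ stood apart (-0.81 ± 0.16, adjusted p = 0.00603). pfl7 was at 8.57, 9.35 and 9.20 in dcr1-SHSS, 9.74, 9.76 and 9.74 in dcr1Δ and 10.31, 10.35 and 10.28 in wild type, lowest in dcr1-SHSS (-0.71 ± 0.15, adjusted p = 0.00971; 0.051 with the 2 strains alone). pfl6 fell by 0.67 ± 0.15 (adjusted p = 0.0123), pfl8 by 0.47 and mbx2 by 0.32.

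Of 18 mating and pheromone genes 4 fell (22.2%) and 0 rose (median -0.19), a share near the 17.7% of all features: sxa2 (-0.34 ± 0.08, adjusted p = 0.0118), ste6 (-0.26), mam1 (-0.24) and byr1 (-0.24). The count was 2 without dcr1-SHSS array 1 or 3 or dcr1Δ array 1, and 1 without dcr1Δ array 2. spo6, which encodes a partner of a meiotic kinase, was among the 15 lowest features, at 10.14, 9.90 and 9.97 in dcr1-SHSS, against 10.77, 10.60 and 10.73 in dcr1Δ and 10.28, 10.15 and 10.22 in wild type (-0.69 ± 0.06). None of the 11 meiotic mRNAs and removal factors around Mmi1 passed the limma test, in either direction, and 0 had an unadjusted p under 0.05; the smallest unadjusted p belonged to mmi1 itself (-0.05 ± 0.03, adjusted p = 0.238).

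Histones, nuclear pores and transposons added few calls. Of 10 histone genes 1 rose (10%, near the 8.85% of all features), hht2, for histone H3, at 13.15, 13.13 and 13.16 in dcr1-SHSS, 12.89, 12.95 and 12.93 in dcr1Δ and 12.91, 12.81 and 12.91 in wild type (0.23 ± 0.04, adjusted p = 0.0041). Of 21 nuclear pore and export genes, 3 fell (14.3%, under the 17.7% of all features), nup37 (-0.22), nup132 (-0.15) and nup85 (-0.14), and nup40 rose (0.11). The call of nup40 was lost in every fit that left out 1 array, as was that of nup85 (highest adjusted p 0.106); nup132 did not pass after quantile normalization (adjusted p = 0.0662). Of 3 measured Tf2 retrotransposons, whose copies share sequence, 0 passed; Tf2-10 (0.30 ± 0.13, adjusted p = 0.0994) passed without dcr1-SHSS array 1 (adjusted p = 0.0362). Of 24 wtf genes, a family of meiotic drivers and related copies, 3 rose (12.5%, against 8.85% of all features) and 0 fell (median 0.08). They were wtf17 (0.34), wtf16 (0.27 ± 0.06, adjusted p = 0.0104) and wtf14 (0.21), and 1 was left without dcr1-SHSS array 1. The calls of wtf17 and wtf14 were lost without dcr1-SHSS array 1 or dcr1Δ array 2, and that of wtf17 also without 3 others (highest adjusted p 0.13 and 0.058).

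The long non-coding RNA list took features by a non-coding RNA ID or biotype. Of its 475 features, 47 were higher (9.89%) and 67 lower (14.1%), shares near those of all features (8.85% and 17.7%). The gene table gives the long non-coding biotype to 331 features, of which 32 were higher and 50 lower. The split of the whole list turned with the scaling, to 60 higher and 36 lower after quantile normalization and 53 and 43 after median centring. Without the dimmest 20% of features it was 18 higher and 6 lower. Without dcr1Δ array 1 it was 30 and 32, and the lower count was 42 without dcr1-SHSS array 1 and 36 without dcr1-SHSS array 2. SPNCRNA.78 was at 10.51, 10.93 and 10.60 in dcr1-SHSS, against 8.57, 9.39 and 10.00 in dcr1Δ and 9.65, 9.90 and 9.73 in wild type (1.36 ± 0.32, adjusted p = 0.0126), with the dcr1Δ arrays widely spread. The 15 lowest features also held 2 further non-coding RNAs, SPNCRNA.463 (-0.77 ± 0.11, adjusted p = 0.0016), one of the dimmest 20% of features, and SPNCRNA.138 (-0.77 ± 0.23). The means of SPNCRNA.463, 4.73 in dcr1-SHSS and 5.50 in dcr1Δ, lay under 5.80, the highest level of the deleted dcr1 on a dcr1Δ array. The call of SPNCRNA.138 was lost in every fit that left out 1 array except that without dcr1-SHSS array 3 (highest adjusted p 0.0891).

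Of 29 pseudogenes 6 were higher (20.7%, against 8.85% of all features) and 5 lower (17.2%, against 17.7%). SPBPB21E7.08 rose by 0.91 ± 0.13 (adjusted p = 0.00179). SPCC18B5.02c rose by 1.35 ± 0.33 (adjusted p = 0.0154), which was lost without dcr1-SHSS array 3 or dcr1Δ array 1 or 2 (highest adjusted p 0.0617). The higher count was 3 without dcr1-SHSS array 1 or 2 or dcr1Δ array 2, and without dcr1Δ array 1 the counts were 2 higher and 3 lower. They were 6 higher and 1 lower without the dimmest 20% of features.

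**Figure D5:**
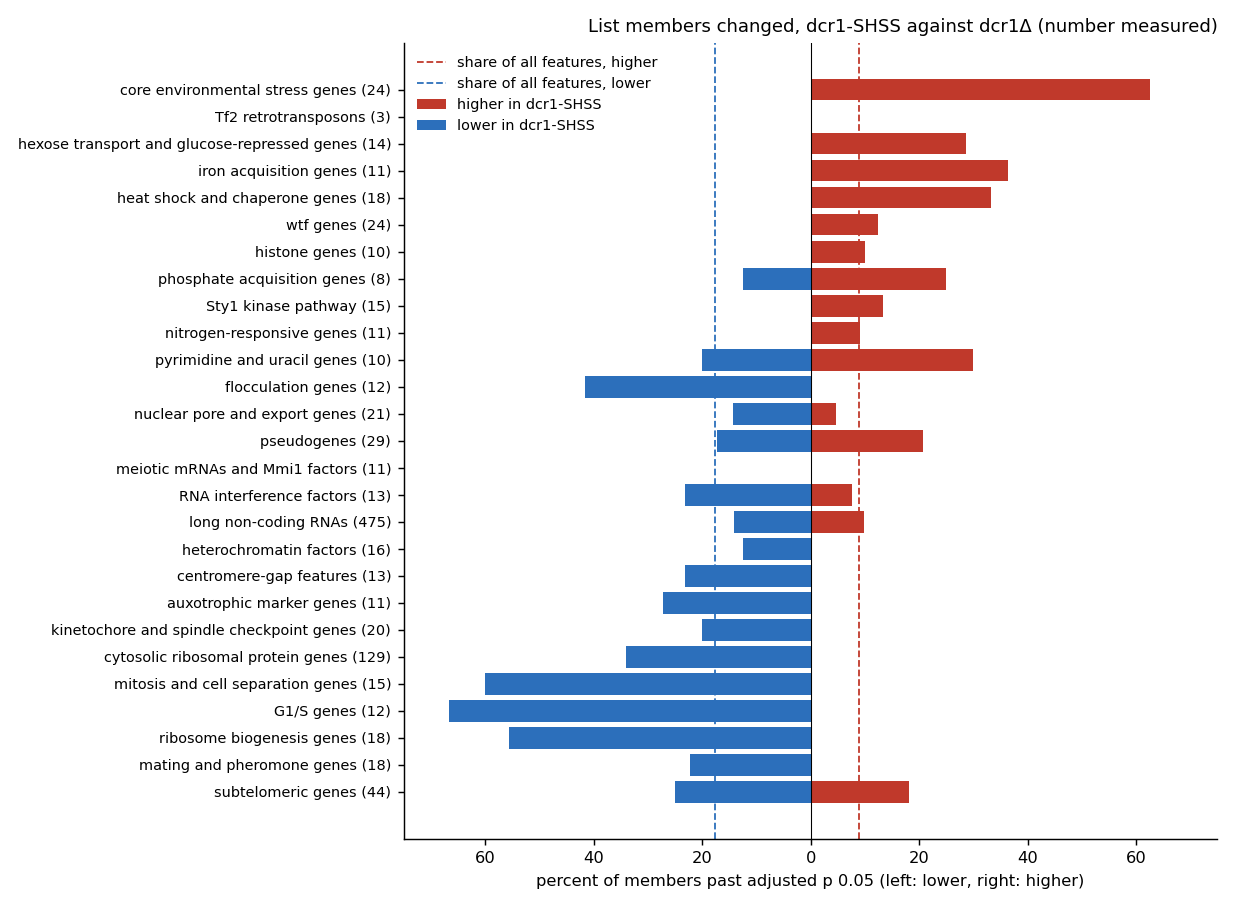
Percent of each list's measured members (number in brackets) past an adjusted p of 0.05, higher in dcr1-SHSS to the right and lower to the left, with dashed lines at the shares of all features, 8.85% and 17.7%; lists are ordered by median difference. Core stress genes have the longest bar to the right, and G1/S, mitosis and ribosome biogenesis genes the longest to the left.

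For context against wild type, 2234 features (40.7%) passed in dcr1-SHSS, 822 higher (15.0%) and 1412 lower (25.8%). In dcr1Δ 172 passed (3.14%), 154 higher (2.81%) and 18 lower (0.328%). These contrasts share the wild-type arrays with each other, and each shares its mutant arrays with the comparison of the mutants, so their values stand side by side only.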

How the data were processed

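The deposited table holds log2 levels, already summarised from tiling probes by the authors. R 2.10.0 and the affy package are named per the submitters' processing notes. Details of background correction, normalization, annotation and build were not given in the sources used here. Scale and centring are thus known only from the values: array medians lay between 11.37 and 11.42. Such summaries can compress changes of dim features. No detection calls were used, and precision is limited by having 3 arrays per strain. Within strains the log2 SD had a median of 0.0653 in dcr1-SHSS, 0.0697 in dcr1Δ and 0.0715 in wild type, and no arrays were near-identical (median absolute difference at least 0.057). The series' design text calls the arrays of a strain biological replicates; p-values measure the spread between them. There were 0 sample columns left unused.

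The log2 values were fitted as deposited in limma 3.58.1 under R 4.3.3, with 4 group means over 12 arrays, moderated by empirical Bayes (2.44 prior and 8 residual degrees of freedom). Tests were 2-sided, adjusted after Benjamini and Hochberg over 5483 features, with a threshold of 0.05 and no fold filter. Intervals (95%) come from the moderated t distribution. In simulated data whose arrays were drawn independently, the test recovered most of the largest planted changes. Every planted change was larger than most of the differences called here, so recovery of smaller ones was not tested. The simulated data also lacked the correlation between same-numbered arrays given below, so its effect on the calls was not tested. Named were dcr1 with its nearest measured neighbours (2 on each side sought), the 15 highest and 15 lowest calls with groups that did not overlap, all centromere-gap features and up to 3 members per list with the largest called change, or, with none called, the one with the lowest p; other names in lists complete a count. One gene that the rule names is not reported here. The members, lists and this rule were chosen with earlier results of these data known, so no list is independent evidence. Lists are described by counts and medians. Ribosomal protein genes were taken by symbol alone. The RefSeq gene table of assembly ASM294v3 named 5357 of the 5483 IDs, 5337 through locus tags and 20 through synonyms, and served for names and gene order only. Promoter motifs, which had been planned, were not run, since no sequence was used here.

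Replicate numbers come from the titles. Deviations of same-numbered dcr1-SHSS and dcr1Δ arrays from their group means correlated at 0.178, 0.437 and 0.266. Differently numbered arrays were not compared, so whether the numbers pair the arrays was not tested. All values come from the fit without a block for this number, except where the block, an alternative, is named. The fit without the block ignores any such pairing. The alternatives tried were median centring, quantile normalization, a filter on the dimmest 20% of features, the 6 arrays alone, a trended robust moderation, the replicate block, single arrays left out, an adjusted p of 0.01 and a 1.5-fold filter.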

Additional observations from a re-analysis of the deposited data

How the results depend on the processing

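The 1456 features called between dcr1-SHSS and dcr1Δ became 1306 after quantile normalization, 1202 with median centring, 1239 without the dimmest 20% of features and 1472 with a trended robust moderation, all within 1.5 times. With the arrays of the 2 strains alone 908 passed, 564 of them lower. When single arrays were left out, the count ranged from 750 to 1409, with 300 to 429 higher and 450 to 980 lower; fewer arrays enter those fits. At an adjusted p of 0.01, 499 passed (228 higher, 271 lower), and 146 with a 1.5-fold filter (123 higher, 23 lower). Of the features in any list, each counted once, 279 were called. That count was 173 without the dimmest features and 154 to 265 without single arrays. It was 184 without dcr1-SHSS array 2 and 154 without dcr1Δ array 1. Of the named features 86 passed, and 60 to 77 did without single arrays.

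With the replicate number as a block, pairing the arrays, 1938 features passed (640 higher, 1298 lower), and among the named features SPNCRNA.370 was the only one whose call between the mutants changed. In the lists it also gave 1 heterochromatin factor higher, and 1 iron and 1 glucose-repressed gene lower, where 0 were called.

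Directions turned mostly for features near 0 with all arrays. SPNCRNA.364 lay further from 0, at -0.26 ± 0.39. None of these features was called there, and the cause was not tested. After quantile normalization the difference between the mutants was 0.01995 for prp45, -0.01037 for svf1, 0.02303 for SPNCRNA.232, 0.06672 for SPNCRNA.369, 0.08401 for SPNCRNA.374 and 0.124 for SPNCRNA.480. Without single arrays it ranged from -0.01069 to 0.01915 for svf1 (below 0 without dcr1-SHSS array 1, dcr1-SHSS array 3 or dcr1Δ array 2), from -0.1137 to 0.07216 for SPNCRNA.232 (above 0 without dcr1-SHSS array 2 or dcr1Δ array 2), from -0.0514 to 0.1155 for SPNCRNA.234 (below 0 without dcr1Δ array 3), from -0.5324 to 0.04939 for SPNCRNA.364 (above 0 without dcr1Δ array 3) and from -0.2166 to 0.06406 for SPNCRNA.369 (above 0 without dcr1Δ array 2). With median centring it was 0.001405 for SPNCRNA.232. Against wild type, quantile normalization gave -0.09681 for pfl9, -0.0516 for prl51 and 0.007122 for SPNCRNA.374 in dcr1-SHSS. In dcr1Δ it gave -0.05202 for sxa2, -0.1107 for mad2, -0.0688 for stc1, -0.007502 for mis16 and -0.07689 for SPNCRNA.374, and median centring gave -0.006831 for svf1 and -0.004989 for mmi1. SPNCRNA.233, SPNCRNA.463 and SPNCRNA.481 are among the dimmest 20% of features, where the summary can compress changes. Their means in both mutants lay under the highest level of the deleted dcr1 on a dcr1Δ array (5.80).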
